A study of Mus musculus with 93 samples.

Results

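The genes described here are the myosin chains of cardiac muscle and the protein that binds them, in cells sorted from mouse embryos and from spheroids of mouse embryonic stem cells. They are 7 of the 24514 gene symbols in the count table, listed by name, though with earlier results of these data known: the heavy chains Myh6 and Myh7, the regulatory light chains Myl2 and Myl7, the essential light chains Myl3 and Myl4, and the myosin binding protein Mybpc3.

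A cardiac myosin molecule is built from a pair of heavy chains, which carry the motor domain, and from regulatory and essential light chains that wrap around the neck of each heavy chain. Myh6 encodes the alpha and Myh7 the beta heavy chain, and both are made in the early heart tube before the chambers come to favour one or the other. Myl7 and Myl4 are the atrial light chains, which the early heart tube uses throughout, whereas Myl2 and Myl3 are those of the ventricle. Mybpc3 encodes cardiac myosin binding protein C, which sits on the thick filament and tunes the access of myosin heads to actin.

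The study asked how cells that model the first and second heart field in spheroids relate to those of the embryo. All animals and the 1 embryonic stem cell line, which was derived from blastocysts of the same cross, carried Hcn4-GFP, Tbx1-Cre and Ai9. GFP+ cells expressed the Hcn4-GFP reporter of the first heart field, and RFP+ cells carried the red Ai9 label, which marks the descendants of cells that once expressed Tbx1-Cre and stays on after Tbx1 is switched off. Each library came from 10 sorted cells in 1 well of a plate, and the labels do not assign wells to embryos or differentiations.
The 4 groups were 5 in vivo GFP+ and 4 in vivo RFP+ libraries from dissected regions of embryos (E8.5 in the sample titles, E7.75 in the protocol), and 38 in vitro GFP+ and 46 in vitro RFP+ libraries from spheroids at day 5.5 of differentiation after induction with Activin A, Bmp4 or Wnt proteins, alone or combined. The labels do not say which combination the sequenced spheroids received. Here n counts wells, so p-values measure the spread between wells, which may be technical.

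Reads counted on genes ranged from 712732 to 2525460 per library in vivo and from 445071 to 5658882 in vitro, apart from the in vitro GFP+ well C9 with 6288, which was kept. In vivo, Hcn4 had reads in 5 of 5 GFP+ and 1 of 4 RFP+ libraries, and Tbx1 in 0 of 5 GFP+ and 3 of 4 RFP+ libraries. In vitro, Hcn4 had reads in 37 of 38 GFP+ and 18 of 46 RFP+ libraries, and Tbx1 in 2 of 38 GFP+ and 41 of 46 RFP+ libraries. On the plate, spheroid RFP+ cells sat in columns 1 to 6 and spheroid GFP+ cells in columns 7 to 11, and an effect of the column cannot be told apart from one of the population. In vivo GFP+ libraries sat in rows A to E and in vivo RFP+ libraries in rows F to H. An effect of the row in vivo cannot be told apart from one of the population. Neighbouring RFP+ wells in columns 3 and 4 gave almost the same library in 7 rows, but their counts differed by more than sampling noise (chi-square per degree of freedom of 1.37 to 2.39, against 4.23 to 8.21 for 15 other neighbouring pairs) and were kept apart. Levels are given as CPM, the reads of a gene divided by all reads counted in that library and multiplied by 1e6.

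The 7 genes lie at 6 places of the genome (GRCm38, GENCODE M21 annotation). Myh6 (chr14:54941921-54966927) and Myh7 (chr14:54970684-54994626) follow each other on the minus strand, Myl7 (chr11:5896637-5898782) lies on the minus strand, and Myl4 (chr11:104550663-104595753), Myl2 (chr5:122100951-122113472), Myl3 (chr9:110741861-110769798) and Mybpc3 (chr2:91118144-91136516) lie on the plus strand. The heavy chains are close copies: 29.3% of the 36-base words in Myh6 exons also occur in Myh7, so that short reads of one can be lost or assigned to the other, and their levels are uncertain to that extent. The light chains and Mybpc3 shared no such word with another gene, except Myl2, of which 3.75% occur in its antisense neighbour Ccdc63. Antisense transcripts overlap Myh7 (Mhrt on 5.62% and Gm31251 on 6.07% of its exon bases) and Pth1r overlaps 4.65% of the Myl3 exon bases. Mhrt, the antisense RNA at the heavy chain locus, had 1 read in all 93 libraries.

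RefSeq promoter windows (GRCm38.p6, 250 bases before to 50 after a start site) were found for all 7 genes and were searched on both strands for the CArG box, at which serum response factor and its partner myocardin act, the MEF2 site, the GATA motifs AGATAA and TGATAA, the T-box motif AGGTGTG and TATAAA. The 3 promoters with a match to a CArG box or a MEF2 site are shown, from Myl7 (chr11:5898733-5899032, minus strand), Myl3 (chr9:110763428-110763727, plus strand) and Mybpc3 (chr2:91117894-91118193, plus strand), each 5′ to 3′ with the matches in capitals.
Myl7: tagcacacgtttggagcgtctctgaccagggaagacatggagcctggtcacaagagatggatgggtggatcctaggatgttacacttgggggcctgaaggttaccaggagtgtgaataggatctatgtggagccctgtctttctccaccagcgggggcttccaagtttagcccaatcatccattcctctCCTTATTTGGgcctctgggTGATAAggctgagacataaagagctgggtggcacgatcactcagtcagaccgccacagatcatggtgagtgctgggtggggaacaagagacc
Myl3: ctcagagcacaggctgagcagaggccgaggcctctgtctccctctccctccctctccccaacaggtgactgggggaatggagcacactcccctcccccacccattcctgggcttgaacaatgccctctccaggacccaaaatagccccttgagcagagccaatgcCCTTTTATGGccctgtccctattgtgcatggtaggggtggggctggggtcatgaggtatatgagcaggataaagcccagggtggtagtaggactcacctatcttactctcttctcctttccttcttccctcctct
Mybpc3: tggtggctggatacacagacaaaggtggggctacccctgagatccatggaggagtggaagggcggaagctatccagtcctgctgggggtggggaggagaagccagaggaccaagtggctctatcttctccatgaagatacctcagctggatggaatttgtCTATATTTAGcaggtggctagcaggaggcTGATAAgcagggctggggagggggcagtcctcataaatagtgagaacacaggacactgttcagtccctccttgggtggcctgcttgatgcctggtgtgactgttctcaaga
In Myl7 the capitals mark a CArG box at -61 to -52 from the start site and TGATAA at -42 to -37. In Myl3 they mark a CArG box at -85 to -76, and in Mybpc3 a MEF2 site at -90 to -81 and TGATAA at -61 to -56. Of 32851 mouse promoter windows of this length, 1.63% held a CArG box, 3.19% a MEF2 site, 9.05% TGATAA, 11.2% AGATAA, 5.84% AGGTGTG and 13.6% TATAAA. The windows of Myh7 and Myl4 held no match to these letters, that of Myh6 held TATAAA just after its start site, and those of Myl2, which lie upstream of its GENCODE start, held AGATAA or TATAAA. A match is a description of the letters and not a measured binding site.

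The first comparison asked whether GFP+ and RFP+ cells of the embryo differed in these genes. All 7 passed the filter on low counts, and 6 of the 7 were higher in GFP+ cells at an adjusted p under 0.1 (edgeR's quasi-likelihood test, Benjamini-Hochberg adjustment over 8503 genes), where 3.88% of all genes tested were called in that direction and 6.21% in the other. That filter asked for enough reads in only as many libraries as the smaller group held. Myh6, Mybpc3 and Myl2, with 28, 77 and 61 reads over the RFP+ libraries, passed it mainly through the GFP+ libraries. For these genes a call could hardly go the other way. The median log2 fold change was 3.95 for the 7 genes beside -0.09 for all genes tested, or 0.04 for all genes with DESeq2 size factors. Together they took 1.12% ± 0.407 (SD, n = 5) of the counted reads in GFP+ and 0.0735% ± 0.0288 (SD, n = 4) in RFP+ libraries. In libraries of 10 cells, fewer cells of a type and less RNA per cell cannot be told apart.

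**Figure D1:**
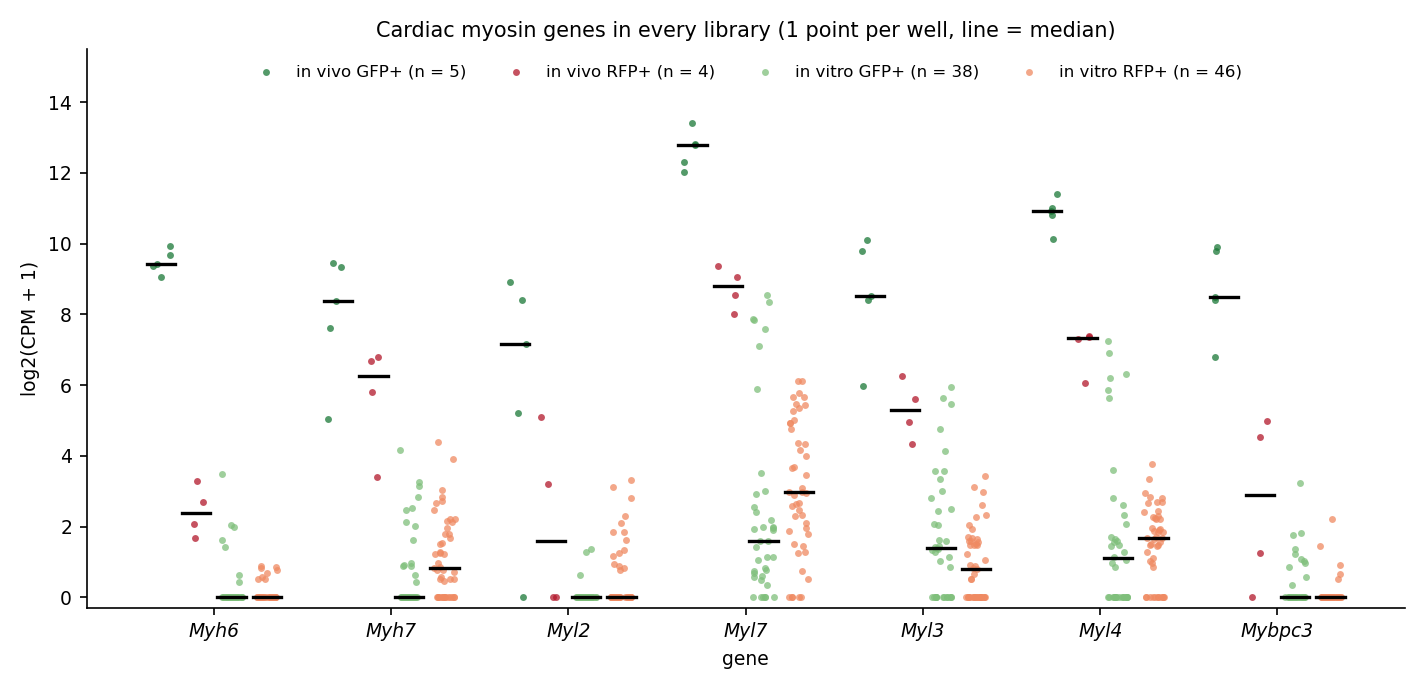
Level of the 7 genes as log2(CPM + 1) in every library, with 1 point per well, black lines for medians and colours for the 4 groups. The 5 in vivo GFP+ libraries stand above the 4 in vivo RFP+ libraries for Myh6, Myl7, Myl4 and Mybpc3, and most in vitro wells have no reads for Myh6, Myl2 and Mybpc3.

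The alpha heavy chain Myh6 differed most. It had 532, 970, 665, 818 and 685 CPM in the GFP+ libraries from wells A12, B12, C12, D12 and E12. The RFP+ libraries from F12, G11, G12 and H11 had 2.19, 5.46, 3.21 and 8.78 CPM, which are 3 to 13 reads. The lowest GFP+ library was far above the highest RFP+ library. The log2 fold change was 7.20 ± 0.49 (SE), with an edgeR adjusted p of 5.3e-06, and all 5 GFP+ libraries were above all 4 RFP+ libraries (two-sided exact permutation p = 0.00794, the smallest that the design allows).

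The beta heavy chain Myh7 gave a less uniform picture. It had 31.6, 701, 334, 194 and 651 CPM in the GFP+ libraries, in the same order of wells. In the RFP+ libraries it had 102, 111, 9.63 and 55.4 CPM. The groups overlapped, because the GFP+ library of A12 was below 3 of the RFP+ libraries. The log2 fold change was 2.49 ± 0.83 (SE) with an edgeR adjusted p of 0.0996, just inside the threshold, and the exact permutation p was 0.0952. The call was lost when B12, C12, E12 or any of the RFP+ libraries was left out (adjusted p from 0.1195 to 0.274), and with totals in place of TMM scaling (adjusted p = 0.1065).

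The balance of the heavy chains was also read within each library, which needs no scaling between libraries. Per transcript length, Myh7 made up 5.52%, 41.5%, 33.01%, 18.9% and 48.3% of the heavy chain pair in the GFP+ libraries. It made up 97.9%, 95.2%, 74.6% and 86.1% in the RFP+ libraries. Myh6 was the major heavy chain in every GFP+ library and Myh7 in every RFP+ library, and the ranges did not overlap. The lowest RFP+ share, that of G12, rests on 16 reads.

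**Figure D2:**
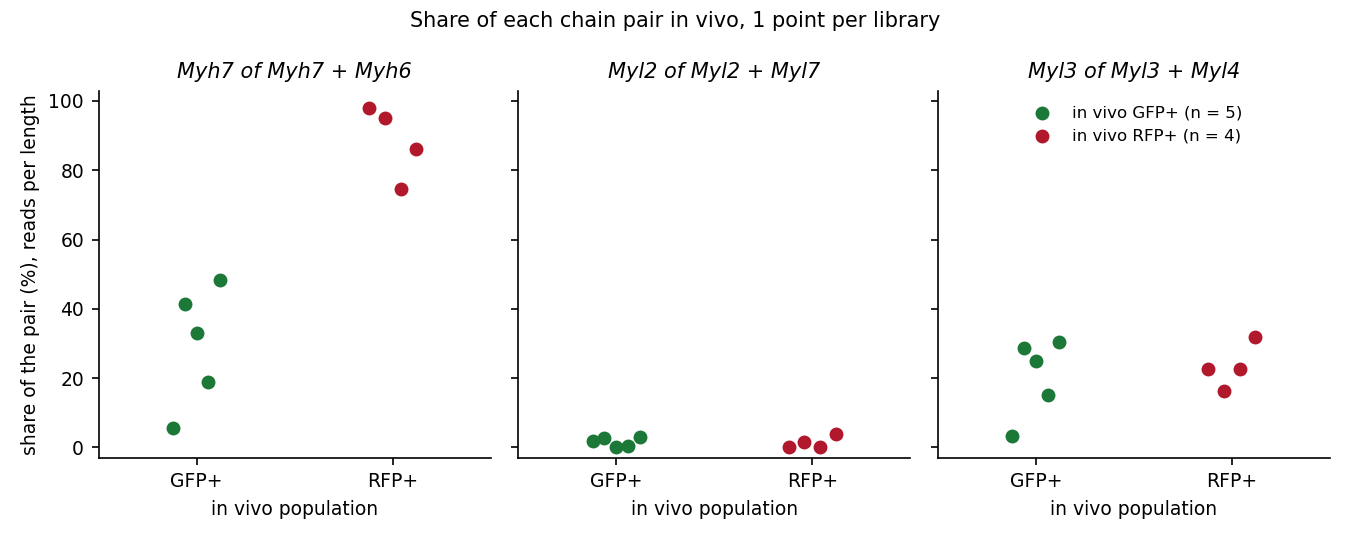
Share in % that the first named gene of each chain pair takes of the pair, from reads per transcript length, for the 5 GFP+ (green) and 4 RFP+ (red) in vivo libraries. The Myh7 share runs from 5.52% to 48.3% in GFP+ and from 74.6% to 97.9% in RFP+ libraries, while the ranges of the light chain shares overlap.

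Of the regulatory light chains, Myl7 was the most abundant of the 7 genes per transcript length in every in vivo library. It had 5088, 10970, 4157, 7020 and 7233 CPM in the GFP+ libraries. The RFP+ libraries had 665, 370, 257 and 532 CPM. The groups were well apart, though even the lowest RFP+ library held 320 Myl7 reads. The log2 fold change was 3.95 ± 0.36 (SE), with an edgeR adjusted p of 3.7e-05 and an exact permutation p of 0.00794.

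Myl2, the ventricular regulatory light chain, was scattered. It had 143, 483, 0, 36.2 and 339 CPM in the GFP+ libraries, and the library of C12 had none of its reads at a limit of 4.21 CPM for 3 reads. In the RFP+ libraries it had 0, 8.19, 0 and 33.1 CPM. The groups overlapped at 0, and Myl2 was the only one of the 7 genes not called, with a log2 fold change of 4.29 ± 1.69 (SE), an edgeR adjusted p of 0.191 and an exact permutation p of 0.103. It was called with no filter on low counts, in DESeq2, with adjusted deviances, and without the GFP+ library of C12 (log2 fold change 4.22 to 4.61, adjusted p from 0.00741 to 0.0902). Per transcript length, Myl2 was at most 3.02% of the regulatory pair in GFP+ and at most 3.97% in RFP+ libraries.

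Of the essential light chains, Myl4 had 1797, 2736, 1113, 1937 and 2053 CPM in the GFP+ libraries. In the RFP+ libraries it had 166, 156, 65.8 and 162 CPM. The lowest of these, in G12, stood apart from the other RFP+ libraries, and no RFP+ library came near a GFP+ library. The log2 fold change was 3.84 ± 0.36 (SE), with an edgeR adjusted p of 4.2e-05 and an exact permutation p of 0.00794.

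Myl3, the ventricular essential light chain, had 62.3, 1096, 369, 340 and 887 CPM in the GFP+ libraries. Its levels in RFP+ cells were 48.2, 30.04, 19.3 and 75.0 CPM. As for Myh7, the GFP+ library of A12 was the lowest and lay among the RFP+ libraries, so the groups overlapped. The log2 fold change was 3.70 ± 0.74 (SE), with an edgeR adjusted p of 0.00936 and an exact permutation p of 0.0238. The Myl3 share of the essential pair was 3.37% to 30.3% in GFP+ and 16.2% to 31.8% in RFP+ libraries, which overlap.

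Mybpc3 had 967, 341, 111, 356 and 886 CPM in the GFP+ libraries. Its RFP+ levels were 30.6, 1.37, 0 and 22.3 CPM. Here the GFP+ library of A12 was the highest of all, in contrast to its low Myh7 and Myl3. The log2 fold change was 5.31 ± 1.09 (SE), with an edgeR adjusted p of 0.0104 and an exact permutation p of 0.00794. In all, 4 of the 7 genes (Myh6, Myl7, Myl4 and Mybpc3) had no overlap between the in vivo groups in the direction of GFP+ cells, beside 3.73% of all genes tested.

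The RFP+ libraries kept different portions of the GFP+ level. The RFP+ mean was 0.669% of the GFP+ mean for Myh6, 2.55% for Mybpc3, 5.15% for Myl2, 6.61% for Myl7, 7.14% for Myl4, 7.83% for Myl3 and 18.2% for Myh7. Myl7, Myl4 and Myl3 thus lay close together, with Myh6 and Myh7 at the ends. These portions are ratios of means and were not tested against each other. A single library moved the Myl2 and Mybpc3 portions by more than 1.5 times. Without the RFP+ library of H11 the RFP+ mean of Myl2 was 2.73 in place of 10.3 CPM and its portion 1.36%, and without the GFP+ library of B12 its portion was 7.97%. Without the RFP+ library of F12 the RFP+ mean of Mybpc3 was 7.89 in place of 13.6 CPM and its portion 1.48%.

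Levels can be set against each other across genes only per transcript length (CPM per kb of the longest coding transcript). In GFP+ libraries the order of means was Myl7 at 11684, Myl4 at 2043, Myl3 at 588, Myl2 at 225, Mybpc3 at 128, Myh6 at 120 and Myh7 at 61.3 CPM per kb. Myl7 was above Myl4, Myl4 above Myl3, and Myh6 above Myh7 in 5 of 5 libraries. Myl3 was above Myl2 in 4 of 5, whereas Myl2 was above Mybpc3, and Mybpc3 above Myh6, in only 2 of 5, so these neighbours were not separated beyond their spread. In RFP+ libraries the order was Myl7 at 773, Myl4 at 146, Myl3 at 46.01, Myl2 at 11.6, Myh7 at 11.1, Mybpc3 at 3.26 and Myh6 at 0.803 CPM per kb. The light chains thus kept their order, and the heavy chains changed places. Myl2 was above Myh7 in 1 of 4 RFP+ libraries.

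Markers of other cell types were measured beside these genes. The cardiac list of thin filament, calcium and transcription factor genes summed to between 19524 and 38738 CPM in GFP+ and between 1795 and 2316 CPM in RFP+ libraries, with reads for 12 of 12 genes in both. Of 10 skeletal muscle markers, 3 had reads in GFP+ libraries (summed 0 to 206 CPM) and 6 in RFP+ libraries (summed 21.9 to 57.8 CPM). Myod1, Myog, Myf6 and Pax7 were at 0 in both, and Myf5, Pax3 and Ckm were at 0 in GFP+ libraries. Smooth muscle markers, which the early heart also expresses, had reads for 5 of 5 genes in both and summed to between 5433 and 11162 CPM in GFP+ and between 517 and 1114 CPM in RFP+ libraries. Markers of cells outside muscle were mostly seen in RFP+ libraries. Of 6 endoderm markers, none had reads in GFP+ libraries and 5 had reads in RFP+ libraries (summed 1.35 to 179 CPM, with Afp at 0). Among these in RFP+ libraries, Epcam had a mean of 63.5 CPM, against 2.99 for Sox17, 2.64 for Foxa1 and 0.353 for Foxa2. Of 6 endothelial markers, 2 had reads in GFP+ libraries (summed 0 to 101 CPM, with Pecam1, Cdh5, Tie1 and Emcn at 0) and 6 in RFP+ libraries (summed 52.9 to 219 CPM). Of 6 blood markers, 2 had reads in GFP+ (summed 0 to 1.09 CPM) and 3 in RFP+ libraries (summed 0 to 765 CPM). The median of these RFP+ sums was 0.683 CPM, so the high value was not general to the RFP+ libraries. Hba-a1, Gata1 and Ptprc were at 0 in both. Of 6 pluripotency markers, 1 had reads in GFP+ (summed 0 to 0.396 CPM) and 3 in RFP+ libraries (summed 0.802 to 7.296 CPM), with Pou5f1, Utf1 and Zfp42 at 0 in both. RFP+ libraries had more genes detected (10263 to 13052, against 6189 to 8302), and the part of these differences in the myosin results was not tested.

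The rest of the thick filament and of the myosin family was read from a list of 40 genes. In vivo 18 of them were tested, of which 8 were called higher and 1 lower in GFP+ cells, where 3.88% and 6.21% of all genes tested were called in those directions. Their median log2 fold change was 1.76 beside -0.09 for all genes tested, and it was 1.15 without the GFP+ library of A12 and 0.99 without that of B12. The called genes included the folding factor Unc45b, a myosin chaperone (log2 fold change 4.82, adjusted p = 2.1e-05), the muscle methyltransferase Smyd1, which assists myosin assembly (4.96, adjusted p = 0.00154), the M-band protein Myom1 (4.61, adjusted p = 8.8e-05), titin, Ttn, which spans the sarcomere from Z-disc to M-band (3.58, adjusted p = 0.00233), the cardiac light chain kinase Mylk3 (2.42, adjusted p = 0.0125) and the smooth muscle light chain Myl9 (2.07, adjusted p = 0.0144), all by edgeR. Hsp90aa1, the general chaperone that works with Unc45b, was lower in GFP+ cells (-0.87, adjusted p = 0.0156), a call that DESeq2 did not make. Of the non-muscle heavy chains, Myh9 (-0.16) and Myh10 (0.52) were not called.
Other sarcomeric heavy chains were almost absent in vivo: none of the 7 listed passed the filter, Myh1, Myh2, Myh4 and Myh13 had 0 reads in the 9 libraries, and Myh3, Myh7b and Myh8 had 1, 2 and 4 reads. Of 3 skeletal light chain and binding protein genes tested, only the fast skeletal light chain Myl1 was called, higher in GFP+ cells. It was named after its values were seen, with 138 ± 116 CPM (SD, n = 5) against 2.12 ± 2.91 (SD, n = 4), an edgeR log2 fold change of 6.01 and an adjusted p of 0.0525. Myl1 had reads in 4 of 5 GFP+ libraries, and the groups overlapped. Means were also higher in GFP+ cells for Mylpf (31.2 against 6.88 CPM), Mybphl (47.8 against 0.351) and Mybpc2 (0.283 against 0). They were lower for Mybpc1 (8.29 against 24.4) and Mybph (0 against 2.67).

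The same question was asked of the spheroid cells, where all 7 genes were low. They took on average 0.00673% of reads in GFP+ and 0.00241% in RFP+ libraries, and the medians were in the opposite order, at 0.000703% and 0.00168%. Only Myl7 passed the filter on low counts, and it was called higher in GFP+ cells, in a comparison where 40.1% of the 9940 genes tested were called in that direction and 37.8% in the other. Its edgeR log2 fold change was 1.44 ± 0.48 (SE), with an adjusted p of 0.00524, and the call was lost with plate row as a covariate (0.85, adjusted p = 0.134).

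The Myl7 mean and median went opposite ways. In GFP+ wells Myl7 ran from 0 to 372 CPM with a mean of 42.3 ± 95.9 (SD, n = 38) and a median of 1.99. In RFP+ wells it ran from 0 to 68.5 CPM with a mean of 16.4 ± 19.4 (SD, n = 46) and a median of 6.81. The mean was higher in GFP+ and the median in RFP+ cells. On log2 CPM, which gives less weight to high wells, the difference between groups was -0.62, with a permutation p of 0.204 (two-sided, 100000 resamples). Within plate rows, the Myl7 mean was higher in GFP+ wells in 5 of 8 rows and the median in 1 of 8.

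**Figure D3:**
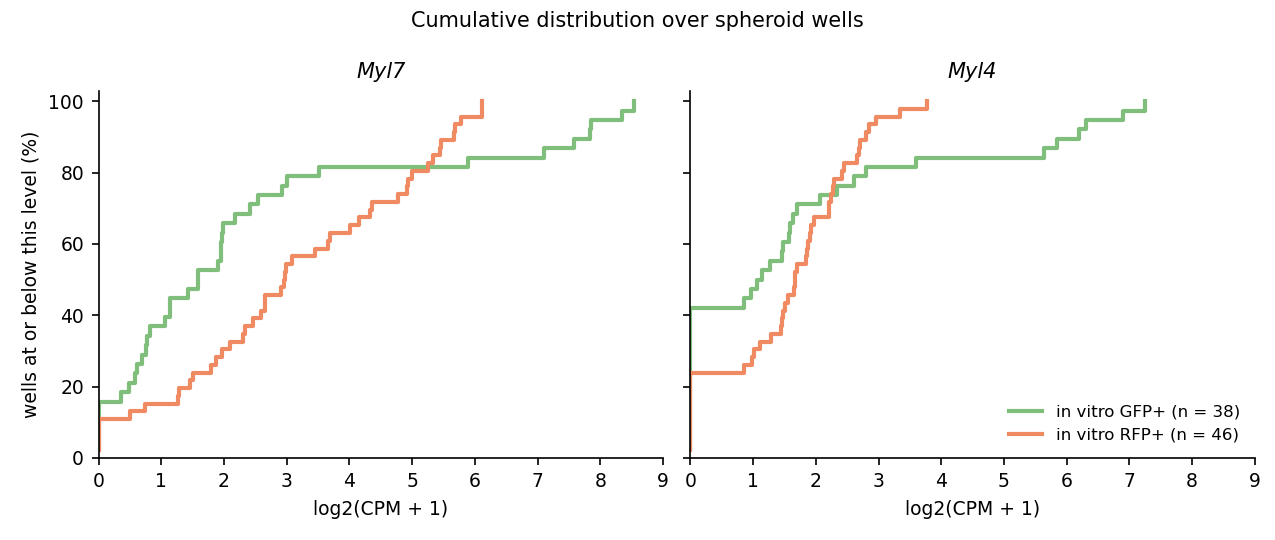
Cumulative percentage of in vitro wells at or below each level of Myl7 (left) and Myl4 (right), as log2(CPM + 1), for 38 GFP+ (green) and 46 RFP+ (orange) wells. Both pairs of curves cross: the GFP+ medians lie below the RFP+ medians (1.99 against 6.81 CPM for Myl7 and 1.15 against 2.17 CPM for Myl4), while 7 GFP+ wells reach 58.3 to 372 CPM of Myl7.

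In GFP+ spheroid cells, 7 of the 38 wells carried nearly all of the signal. Myl7 had 372 CPM in B11, 324 in B9, 231 in H7, 228 in G10, 191 in E8, 137 in C7 and 58.3 in G8, and no more than 10.4 CPM in the other 31 wells. These 7 wells, picked by Myl7 itself and described here without a test, lay in all 5 GFP+ columns and in 5 of the 8 rows of the plate, and their totals ran from 1261496 to 4371849 reads. They held 97.3% of the Myl7 reads of the group. The RFP+ wells were not split in this way: 19 of 46 were above 10.4 CPM and 2 above 58.3 CPM. Those 2, H3 at 68.5 and H4 at 68.0 CPM, are neighbours in columns 3 and 4 with almost the same library.

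The reads of the other members except Myl2 also lay mostly in these 7 wells, which held 95.3% of the Myl4 reads, 84.1% of the Myl3, 91.4% of the Myh6, 83.0% of the Myh7 and 86.2% of the Mybpc3 reads, but 28.6% of the 7 Myl2 reads. The 7 wells include the deepest GFP+ libraries, C7, H7 and B9, so depth enters these shares. For comparison, they held 29.2% of the Hcn4 reads. The same wells were the 7 highest for Myl4, at 11.1 to 150 CPM against at most 5.95 in the other wells. For Myh6, 6 of the 7 wells had reads (0.337 to 10.3 CPM) and 1 of the other 31. Even in these wells, levels stayed below those of the embryo: the highest Myl7 well had 372 CPM, against 4157 in the lowest in vivo GFP+ library, and the highest Myh6 well had 10.3 against 532 CPM.

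Genes were ranked by the correlation of their log2 CPM with the mean log2 CPM of the 7 genes over the 38 GFP+ wells, among 9939 genes, as a description. The 8 most alike were Tnni1 (Pearson's r of 0.850), Myocd (0.831), Ttn (0.796), Nexn (0.753), Actc1 (0.739), Mef2c (0.701), Asb4 (0.682) and Slc8a1 (0.594). Tnni1 encodes the slow and embryonic troponin I, Actc1 cardiac actin, Nexn an actin-binding Z-disc protein and Slc8a1 the sodium-calcium exchanger, and Myocd and Mef2c encode transcription regulators of muscle genes. These correlations share the libraries and their depth, and Spearman's rho was 0.373 to 0.638. Without the 7 wells r was 0.438 for Tnni1, 0.384 for Asb4, 0.248 for Actc1 and at most 0.184 for the others. Over the 46 RFP+ wells r was between -0.24 and 0.27 for all 8.
Tnni1, Myocd, Ttn and Nexn had their 7 highest wells in the same 7 wells, with Tnni1 at 136 to 323 CPM against at most 60.3 and Myocd at 10.8 to 67.5 CPM against at most 6.77. These genes were ranked over the same wells, so this overlap is largely fixed by the ranking and is no separate result. Hcn4, the gene behind the reporter and not picked by this ranking, did not follow. Its median was 7.85 CPM in the 7 wells and 6.86 in the other 31, and none of the 7 was among the 7 highest for Hcn4.

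**Figure D4:**
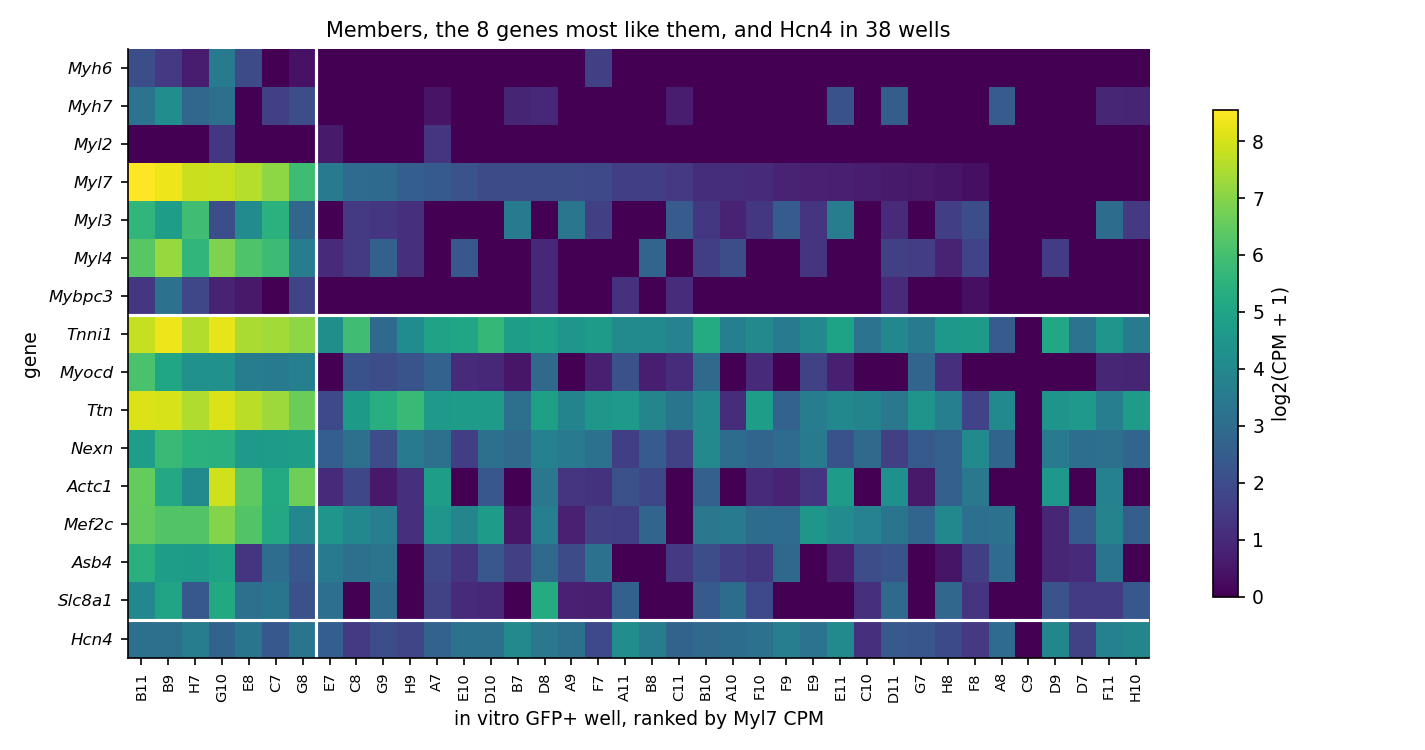
Levels as log2(CPM + 1) in the 38 in vitro GFP+ wells, ranked from left to right by Myl7, for the 7 myosin genes, the 8 genes most like them and Hcn4, with white lines between these blocks and after the seventh well. The 7 wells on the left are bright for Myl7, Myl4, Tnni1, Ttn and Nexn, and Hcn4 shows no such step.

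The 6 genes that the filter removed in vitro were compared one by one on log2 CPM by two-sided permutation tests with 100000 resamples, unadjusted. Myl2 was higher in RFP+ cells, with reads in 15 of 46 RFP+ and 3 of 38 GFP+ libraries and 62 against 7 reads (difference -0.45, p = 0.00294). Of the RFP+ reads, 5 were in H3 and 15 in H4, neighbouring wells with almost the same library that this test counted separately. Myl3 was higher in GFP+ cells at a mean of 7.13 against 1.52 CPM (0.76, p = 0.0109), with reads in 25 of 38 and 27 of 46 libraries. Mybpc3 was higher in GFP+ cells (0.23, p = 0.0445), with reads in 11 of 38 and 5 of 46 libraries, but this did not pass with the RFP+ wells of columns 3 and 4 summed, nor in DESeq2 (adjusted p = 0.186). The direction of the ventricular light chains thus differed between Myl2 and Myl3.
Myh7 had reads in 15 of 38 GFP+ and 32 of 46 RFP+ libraries (-0.37, p = 0.131). Myl4 had a higher mean in GFP+ (15.04 against 2.69 CPM) and a higher median in RFP+ libraries (2.17 against 1.15 CPM), and its log2 difference was 0.24 (p = 0.517). Myh6 had reads in 7 of 38 GFP+ and 8 of 46 RFP+ libraries (0.18, p = 0.127). The differences in Myh6, Myh7 and Myl4 did not pass this test, whereas edgeR with no filter called Myh6 (log2 fold change 1.72, adjusted p = 0.00201) and Myl4 (2.46, adjusted p = 6.0e-06) higher in GFP+ cells, where 35.3% of all genes were called in that direction. DESeq2, with 29.2% of all genes called in that direction, called Myl4 (2.52, adjusted p = 2.8e-05) but not Myh6 (1.75, adjusted p = 0.151). The Myh6 mean was 5.03 times as high in GFP+ as in RFP+ wells, and 2.64 times without the GFP+ well G10. At an equal depth of 445071 reads, without well C9, a Myl2 read would be found in 3.59% of GFP+ and 21.1% of RFP+ libraries, and a Myh7 read in 26.9% and 42.4%. Of the heavy chain reads summed per length, Myh7 took 80.5% in GFP+ and 94.7% in RFP+ cells, from 182 and 172 reads.

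Of the 40 other thick filament and myosin family genes, 13 were tested in vitro, of which 6 were higher and 4 lower in GFP+ cells. These shares lie near the background of 40.1% and 37.8% of all genes called in those directions, and the median log2 fold change was 0.25 beside 0.02 for all genes. Those higher in GFP+ cells were the ubiquitin ligase Trim63, which acts on thick filament proteins (3.24, adjusted p = 8.4e-19), Ppp1r12a, the targeting subunit of myosin phosphatase (0.66, adjusted p = 7.6e-18), Unc45b (3.26, adjusted p = 1.1e-14), Ttn (3.31, adjusted p = 1.7e-14), Myh9 (0.54, adjusted p = 2.8e-14) and Myh10 (0.31, adjusted p = 2.3e-05), all by edgeR. Those higher in RFP+ cells were the light chains Myl12b (-0.20), Myl6 (-0.18) and Myl9 (-0.78) and Hsp90aa1 (-0.09). Myl9 was thus called in opposite directions in vivo and in vitro. The cardiac markers summed to between 318 and 1727 CPM in GFP+ and between 399 and 681 CPM in RFP+ wells, with reads for 12 of 12 in both. The lowest GFP+ value was that of well C9 with its 6288 reads, and without it the GFP+ sums began at 435 CPM. The largest parts were Tpm1 (mean 542 CPM in GFP+ against 358 in RFP+ wells) and Atp2a2 (85.9 against 120 CPM). Actc1 (20.0 against 17.2 CPM) was not called. The pluripotency markers summed to between 62.1 and 1548 CPM in GFP+ and between 8.79 and 551 CPM in RFP+ wells. The part of those cells in the myosin levels was not tested.

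The populations were also compared between sources, where source cannot be told apart from plate column. In GFP+ cells 6 of the 7 genes were tested and all 6 were called higher in vivo, where 19.7% of 11822 genes were called higher in vivo and the median log2 fold change of all genes was -0.67. With DESeq2 size factors that median was -0.22, and 3473 genes were called higher and 4687 lower in vivo, against 2326 and 5710. The filter asked for enough reads in only as many libraries as the smaller group held. Myh6, Mybpc3 and Myh7, with in vitro medians of 0 CPM, thus passed it mainly through the in vivo libraries. A call for them could hardly go the other way. Myh6 (log2 fold change 10.21 ± 0.43 SE) and Mybpc3 (9.26 ± 0.46) differed most, before Myh7 (7.55 ± 0.57), Myl7 (7.17 ± 0.80), Myl4 (6.77 ± 0.70) and Myl3 (6.02 ± 0.63), with edgeR adjusted p from 3.6e-26 to 7.4e-11. For these 6 genes no in vitro well reached the lowest in vivo library, although the gap was narrow for Myl3 (60.2 CPM in H7 against 62.3 CPM in A12). How many of all genes lacked overlap between the sources was not counted, so this cannot be read as particular to the 6 genes. Myl2, which the filter removed, had a log2 CPM difference of 5.70 (two-sided exact permutation p = 4.1e-05).

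In RFP+ cells the 5 genes tested were all called higher in vivo, where 20.1% of 11147 genes were called higher in vivo and the median of all genes was -0.04. Myl4, Myl3 and Myh7, with in vitro medians of 2.17, 0.743 and 0.789 CPM, likewise passed the filter mainly through the in vivo libraries. The log2 fold changes were 5.65 ± 0.37 (SE) for Myl4, 4.97 ± 0.52 for Myh7, 4.84 ± 0.44 for Myl7, 4.80 ± 0.54 for Myl3 and 3.50 ± 0.80 for Myl2, with edgeR adjusted p from 1.5e-20 to 0.00037. The Myl2 call rested on the RFP+ library of H11, without which its log2 fold change was 1.58 (adjusted p = 0.299), and it was not made by DESeq2 (adjusted p = 0.133). Myh6 (log2 CPM difference 2.13, p = 4.3e-06) and Mybpc3 (2.42, p = 0.00061), which the filter removed, were also higher in vivo by two-sided exact permutation tests. The sources overlapped for 3 of the 7 genes, since 2 of 46 in vitro RFP+ wells were above the lowest in vivo RFP+ library for Myh7, 15 for Myl2 and 5 for Mybpc3, and none was for Myh6, Myl7, Myl3 or Myl4. For Myl2 and Mybpc3 that lowest library had no reads. The share of all genes without overlap between the sources was not counted in RFP+ cells either.
Other cell type markers differed between the sources as well. In GFP+ cells the pluripotency markers summed to at most 0.396 CPM in vivo and to between 62.1 and 1548 CPM in vitro. The endoderm markers summed to 0 CPM in vivo and to between 50.1 and 219 CPM in vitro without C9, which had 318 CPM. Among them in vitro, Epcam had a mean of 127 CPM and Foxa2 of 2.26 CPM. The cardiac markers summed to at least 19524 CPM in vivo and at most 1727 CPM in vitro. In RFP+ cells the pluripotency markers summed to between 0.802 and 7.296 CPM in vivo and between 8.79 and 551 CPM in vitro, the endoderm markers to between 1.35 and 179 against 9.70 to 109 CPM, and the cardiac markers to between 1795 and 2316 against 399 to 681 CPM. The part of these markers' cells in the myosin differences was not tested.
The GFP+ and RFP+ comparisons differ in their wells, and their fold changes are given side by side without a test between them.

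**Figure D5:**
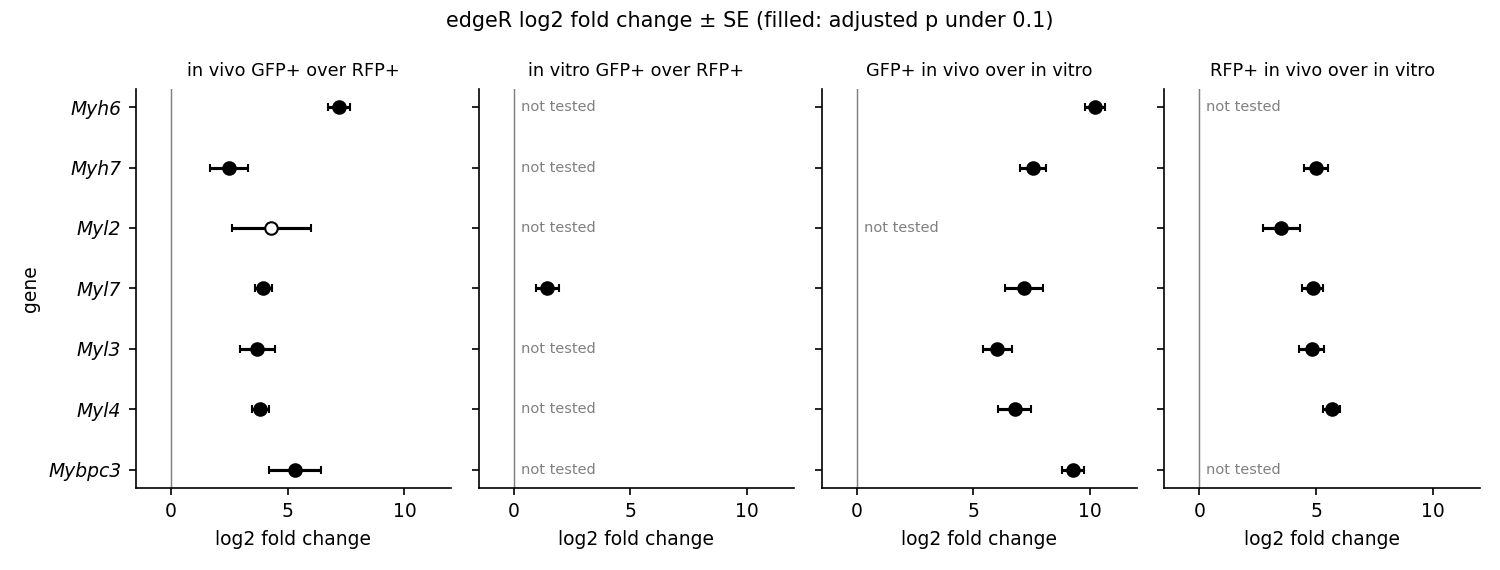
edgeR log2 fold changes with bars of 1 SE for the 7 genes in the 4 comparisons, filled where the adjusted p was under 0.1 and with genes that the filter removed written as not tested. All plotted values are above 0, Myl2 is the open point in the in vivo comparison, and Myl7 is the only gene tested in vitro.

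Whether the GFP+ to RFP+ difference itself differed between embryo and spheroid could be tested for Myl7, the only member in both fits. The in vivo log2 fold change exceeded the in vitro one by 2.51 ± 0.60 (SE), with an adjusted p of 0.0855 over 8182 genes from the edgeR fits, where 5.26% of genes were called. In a single edgeR fit over the 4 groups, which assumes 1 spread for all of them, the Myl7 difference was 2.47 with an adjusted p of 0.103, and Myh6 (5.59), Myl2 (6.72), Mybpc3 (3.67) and Myh7 (2.71) were called. These are 4 of the 7 genes, in a fit where 54.4% of 12655 genes were called.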

How the data were processed

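Per the submitters' notes and the paper, the authors used Trimmomatic 0.36 to cut reads to bases of quality 35 or more and to drop those under 36 bases, HISAT2 2.0.4 for mapping to mm10, and featureCounts 1.5.2, and they deposited whole-number counts per gene symbol without normalization. Whether strand was used in counting is not given in the sources used here. The cDNA was primed on poly(A) and amplified by PCR without molecular identifiers, so limits from counts cover counting error only. CPM were computed from the deposited counts and library totals.

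GFP+ and RFP+ libraries were compared in each source, and each population between sources, with edgeR 4.0.16 in R 4.3.3 (TMM, filterByExpr with minimum count 10, minimum total 15 and minimum proportion 0.7, trended dispersion, quasi-likelihood F-test), called at an adjusted p under 0.1 as in the study. The fits were tested on simulated data. Genes that the filter removed were tested by permutation of log2 CPM with a prior count of 2. The SE printed with an edgeR log2 fold change is its absolute value over the root of the F statistic. The difference between sources was tested with these SE and 7 degrees of freedom. Alternatives were DESeq2 1.42.0, other scaling, no filter, a threshold of 0.05, plate row as a covariate, summed well pairs and left-out libraries, and, added after seeing the data, adjusted deviances, the GFP+ source comparison and marker sums without C9, the RFP+ source comparison with pairs summed, and ratios of means without each library in turn.

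The named genes were the 7 members, up to 6 called family genes per direction by smallest p in each comparison of GFP+ with RFP+, the 8 genes most like the members, and markers. Myl1 and the other skeletal light chain and binding protein genes, Mhrt, Hcn4, Tbx1 and the other sarcomeric heavy chains were named after their values were seen. The members and lists were chosen with earlier results of these data known.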

Additional observations from a re-analysis of the deposited data

Results flagged for a closer look

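Of 14 groups of 4 or 5 in vivo libraries (7 genes in each population), 1 held a library far from the rest, where chance flags about 1 in 20 groups: Myl4 in the RFP+ library of well G12 had 65.8 CPM, while the other 3 RFP+ libraries had 156 to 166 CPM. That library was also the lowest RFP+ library for Myh7, Myl7 and Myl3. The Myl7 difference between GFP+ and RFP+ cells was larger in vivo than in vitro by 2.51 on the log2 scale, by the test of the difference from the separate fits, and this passed the threshold in that test but not in the single fit over the 4 groups.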

How the results depend on the processing

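No paired analysis was possible because the labels give wells and no replicate numbers shared between groups. In vivo, 6 of the 7 genes were called. The count was 5 at a threshold of 0.05 and with total counts, 6 with DESeq2 size factors, 7 with no filter, with adjusted deviances and in DESeq2, and 5 to 6 when each library was left out in turn. Of all 8503 genes, 330 were called higher in GFP+ cells in the main fit. That number was 244 at 0.05, 324 with total counts, 392 with DESeq2 size factors and 640 with adjusted deviances. Of 15111 genes, it was 362 with no filter and 591 in DESeq2. With a library left out it was 211 to 402, of 8106 to 9022 genes. Between sources, the count for GFP+ cells was 6, or 7 with no filter, in DESeq2 and without the library of C12. For RFP+ cells it was 5, or 7 with no filter and 4 with the well pairs summed, and 4 to 5 when each in vivo library was left out. Of all genes in GFP+ cells, 2326 of 11822 were called higher in vivo, or 2880 of 21087 with no filter. In DESeq2 it was 3417 of 21087, and 2541 of 12259 without C12. In RFP+ cells it was 2241 of 11147, or 2696 of 20426 with no filter and 2187 of 11062 with the pairs summed. With an in vivo library left out it was 1948 to 2091, of 11426 to 11433 genes. The in vitro count of 1 became 6 of 7 with no filter (5 higher in GFP+ and 1 higher in RFP+), 4 of 7 in DESeq2 (3 and 1), both of which test sparse genes, and 0 with plate row as a covariate. The cause of the last was not tested. For the 40 family genes in vitro, 28 were called with no filter and 23 in DESeq2, of 40 tested, against 10 of 13. Of all genes, 13109 of 21827 were called with no filter and 10735 of 21827 in DESeq2, against 7747 of 9940. The difference between sources was called for 0 members at 0.05 and for 4 of 7 by the interaction term over the 4 groups. Over single genes, 282 values under alternatives kept direction and side of the threshold, 15 kept the direction and lost the call, 7 kept it and gained one, and none turned direction under these alternatives. Between kinds of test, the in vitro Myl7 difference was 1.44 in edgeR and -0.62 on log2 CPM. Most in vitro wells of both populations had no reads of Myh6, Myl2 and Mybpc3.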
